A study of Mus musculus with 6 samples.

Results

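The 34 genes described here encode chromatin regulators that are linked to neurodevelopmental disorders, and they were chosen by symbol from the deposited gene table. Each symbol matched 1 of the 55401 gene rows, and all 34 passed the filter on low counts that kept 19844 genes. RNA was sequenced from the cortex of C57BL/6 mouse embryos at embryonic day 18, in 3 libraries from Csmd3-/- embryos and 3 from wild-type embryos, all from matings of heterozygous parents. Csmd3 codes for a very large transmembrane protein built of CUB and Sushi repeats. The sources used here do not give which part of Csmd3 was removed, the sex of the embryos, or whether littermates were compared. They also do not say that the libraries of a group came from separate embryos, so p-values measure the spread between these libraries, which may be technical.

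Chromatin regulators decide how tightly DNA is wrapped around histones and which stretches can be transcribed. Remodelling enzymes of the CHD and SWI/SNF (BAF) families slide or evict nucleosomes, methyltransferases and acetyltransferases mark histone tails, and demethylases and deacetylases remove those marks. In the developing cortex the BAF and CHD complexes exchange subunits as progenitors become neurons. Loss of 1 copy of many of these genes causes autism, intellectual disability or a malformation syndrome in humans, so their dose is thought to matter.

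Each library held 54244288 to 68269607 deposited counts. Csmd3 itself had 9.82, 10.3 and 9.80 CPM (library-scaled counts) in knockout, against 16.6, 13.2 and 15.1 CPM in wild type. Every knockout library was lower (log2 fold change -0.59, SE 0.13, adjusted p = 0.0233). Since the removed part is unknown, this is a weak check of the genotype, and the call was lost without any single library except wild-type library 2 or 3 (highest adjusted p = 0.101). Of 10 cortical markers 0 rose and 1 fell (summed level 3716 to 4229 CPM in knockout, 3289 to 3792 CPM in wild type). Markers of other cells differed between groups. All 14 meningeal and mural markers rose (summed 608 to 824 CPM in knockout, 40.8 to 53.4 CPM in wild type), as did 9 of 12 microglial and macrophage markers (118 to 145 CPM in knockout, 34.2 to 38.5 CPM in wild type), 7 of 9 endothelial and 9 of 12 dividing-cell markers. Choroid plexus markers summed to 9.66, 46.0 and 490.0 CPM in knockout libraries 1 to 3 and to 0.844 to 1.29 CPM in wild type, where Folr1 was at 0 in every library. Of 12 neuronal markers 9 fell. Of radial glial markers 3 of 10 rose, of astrocyte markers 1 of 6, and of oligodendrocyte-lineage markers 1 of 6 rose and 3 fell, while 0 of 7 erythroid markers passed the threshold. In bulk tissue, more cells of a type and more RNA per cell cannot be told apart. Wild-type library 2 also stood apart for genes with long exons, and fold changes without it are given after the single genes.

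At this age 33 of the 34 genes lay above the median level of the genes tested. Genes are compared by CPM per kb of annotated exon, a scale that understates genes with long alternative exons. By that scale the remodeller gene Chd3 was highest (142 ± 4.57 in knockout, 139 ± 5.57 in wild type, SD, n = 3). The BAF genes Smarcc2 (105 ± 3.71 in knockout and 102 ± 5.08 in wild type) and Smarca4 (102 ± 3.35 and 103 ± 3.56 in the same order) came next. The factor gene Adnp followed, and then Kdm6b and Bcl11a together. Mbd5, whose protein resembles readers of methylated DNA, was lowest (2.04 ± 0.177 in knockout and 2.25 ± 0.585 in wild type). The highest gene exceeded the lowest 65.5-fold. Along this order, 27 of 33 pairs of neighbours had ranges over the 6 libraries that overlapped. The 6 steps without overlap lay below Chd3, Smarca4, Adnp, Bcl11a, Dnmt3a and Hdac4. From Tcf4 down to Dnmt3a, 25 genes formed 1 continuous run between 25.1 and 6.99 CPM per kb, in which each gene overlapped the next. Deposited counts of these genes ranged from 2114 for Mbd5 to 85104 for Chd3.

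**Figure D1:**
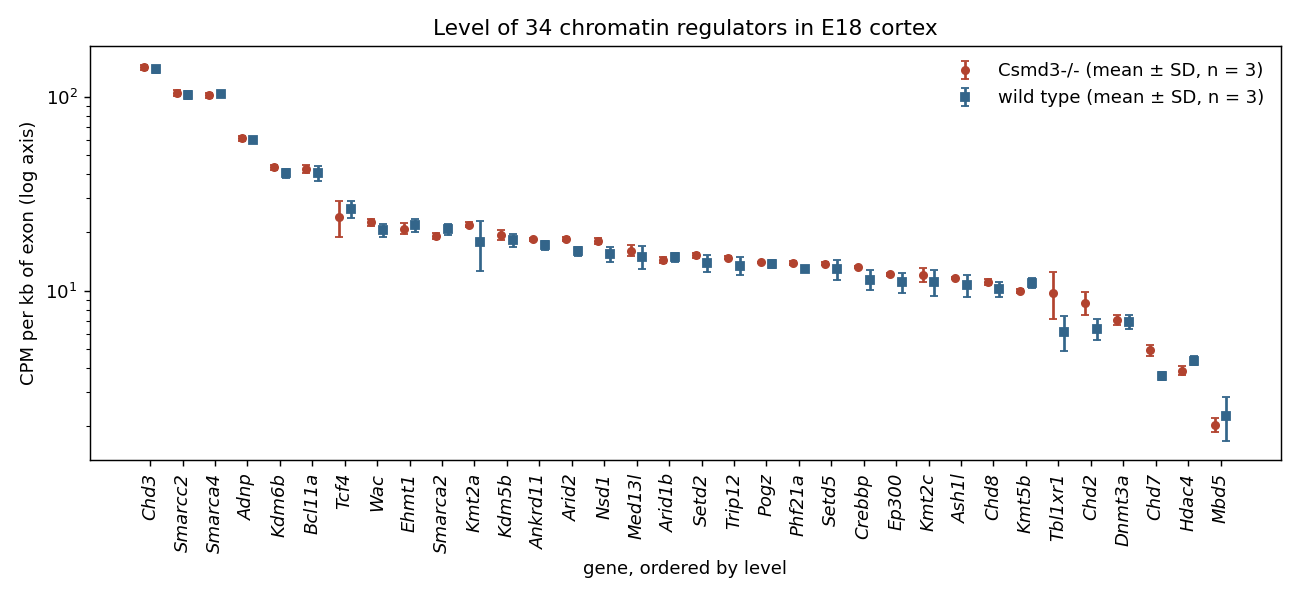
Level of each of the 34 genes as CPM per kb of annotated exon (log axis), mean ± SD of 3 Csmd3-/- libraries (circles) and 3 wild-type libraries (squares), ordered by the mean of all 6. Chd3, at 140.5 CPM per kb over the 6 libraries, stands at the left and Mbd5, at 2.15, at the right.

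Few of these genes differed between knockout and wild-type libraries by the test used, in tissue whose cell markers also differed. Only Chd7 rose (1 of 34, 2.94%), and 0 of 34 fell, by edgeR's quasi-likelihood test with adjustment over all genes tested. Over all tested genes 5.21% rose and 2.53% fell (7.74% in either direction), so the share of these genes that moved was not above the background. At an unadjusted p under 0.05, 6 of the 34 were higher and 0 lower, against 12.5% and 9.71% of all tested genes. These 6 were Chd7, Chd2, Arid2, Nsd1, Crebbp and Tbl1xr1, and each had a smaller log2 fold change without wild-type library 2, as given below. Counts this small were not tested against the shares of all genes. DESeq2, run as an alternative, called 3 higher (8.82%, against 7.47% of all genes) and 0 lower (against 4.64%). The median size of the change, regardless of direction, was 0.12 on the log2 scale for these genes and 0.21 for all tested genes. Their standard errors were also smaller, with a median of 0.079 against 0.16. For 30 of the 34 genes the 95% confidence interval of the fold change stayed within 1.5-fold in both directions, as it did for 46.3% of all tested genes. The interval reached past 1.5-fold for Chd2, Chd7, Kmt2a and Tbl1xr1. It stayed within 1.25-fold for 19 of the 34. Changes beyond 1.25-fold are not excluded for the others, and smaller changes are not excluded for the 19. Most of the fold changes were slightly positive: 26 of 34 lay above 0, against 50.3% of all tested genes. The median of the 34 was 0.10, against 0.00199 for all tested genes. Without wild-type library 2 the median was 0.035, and 25 of 34 still lay above 0, against 50.8% of all tested genes. Values of single genes without that library are given below.

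The CHD remodellers held the clearest differences. CHD7 is an ATP-dependent remodeller of enhancers that acts in neural progenitors, and its loss in humans causes CHARGE syndrome. Chd7 (ENSMUSG00000041235.12, chromosome 4, 8690406 to 8867659, plus strand, mm10) had 66.2, 65.3 and 73.2 CPM in knockout libraries 1 to 3, against 50.7, 47.5 and 51.8 CPM in wild-type libraries 1 to 3. All 3 knockout libraries lay above all 3 wild-type libraries. On the log2 scale the difference was 0.45 (SE 0.080, adjusted p = 0.0108), a fold of 1.36 with a 95% interval of 1.20 to 1.54. Leaving out knockout library 3 ended the call (0.40, adjusted p = 0.0601), as did leaving out knockout libraries 2 and 3 together (0.41, adjusted p = 0.306). With any other single library left out it was kept, and over all alternatives the adjusted p ran from 0.000141 to 0.306. The 12 markers of dividing cells summed to 881 to 910.1 CPM in knockout and 534 to 676 CPM in wild type, and 9 of 12 rose. For 8 markers of intermediate progenitors the sums were 783 to 845 CPM and 537 to 693 CPM, and 4 of 8 rose. The meningeal, microglial and endothelial markers given above rose in the same libraries. The part of these cells in the Chd7 value was not tested.

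Chd2 came next. CHD2 is a remodeller whose loss in humans causes epileptic encephalopathy. Chd2 (chromosome 7, 73426638 to 73541830, minus strand) had 143, 119 and 111 CPM in knockout, against 86.5, 83.3 and 104 CPM in wild type. The groups did not overlap, but knockout library 3 and wild-type library 3 lay close together. The difference missed the threshold (log2 fold change 0.44, SE 0.12, adjusted p = 0.0522; 95% interval of the fold 1.13 to 1.63). It passed without wild-type library 3 (0.55, adjusted p = 0.0186), with DESeq2 (adjusted p = 0.0114), with counts divided by 4 (0.0433) and with either other filter on low counts (0.0360 and 0.0473). Over all its alternatives the adjusted p ran from 0.0114 to 0.179. Of the exon bases of Chd2, 18.4% are shared with 1810026B05Rik on the same strand, so reads there cannot be assigned with certainty. That gene had 25.4 ± 4.34 CPM in knockout and 24.4 ± 1.41 in wild type.

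Chd8, a gene recurrently mutated in autism, and Chd3 did not pass. Chd8 averaged 184 ± 7.43 CPM in knockout and 169 ± 15.3 CPM in wild type (log2 fold change 0.12, 95% interval -0.057 to 0.30). CHD3, CHD4 and CHD5 are alternative motor subunits of the NuRD complex, which joins remodelling with histone deacetylation. Chd3 had 1239, 1196 and 1162 CPM in knockout, against 1211, 1190 and 1121 CPM in wild type. These ranges overlapped, and the interval of the log2 fold change was -0.11 to 0.17. Its partner Chd4 was at 484 ± 15.2 CPM in knockout and 416 ± 42.5 CPM in wild type (log2 fold change 0.22, SE 0.081, adjusted p = 0.145). Chd5, the form of mature neurons, fell to 140.0, 122 and 119 CPM in knockout, against 234, 214 and 168 CPM in wild type (-0.69, SE 0.12, adjusted p = 0.0122). The Chd5 call was lost without knockout library 3 (adjusted p = 0.0621) or wild-type library 2 (0.0690). In these libraries 12 neuronal markers summed to 4474 to 4708 CPM in knockout and 5526 to 6785 CPM in wild type, and 9 of 12 fell. The part of these cells in the Chd5 value was not tested.

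Of the 6 genes of the BAF remodeller 0 changed, and their log2 fold changes ran from -0.12 to 0.22. SMARCA4 and SMARCA2 are its alternative ATPase motors. Smarca4 had 684, 645 and 648 CPM in knockout and 690, 674 and 645 CPM in wild type. Smarca2 had 285, 265 and 269 CPM in knockout and 301, 275 and 314 CPM in wild type. For both genes the groups overlapped (adjusted p = 0.873 and 0.374). The core subunit gene Smarcc2 had 578, 605 and 564 CPM in knockout and 599, 545 and 558 CPM in wild type. Its log2 fold change was 0.038 (95% interval -0.11 to 0.19). Arid1b, whose product targets the complex to DNA and whose loss causes Coffin-Siris syndrome, was at 182 ± 6.45 CPM in knockout and 187 ± 10.2 in wild type. Bcl11a, a zinc-finger partner of BAF expressed in cortical projection neurons, was at 563 ± 26.1 and 534 ± 46.9 CPM in knockout and wild type. Arid2 (chromosome 15, 96287518 to 96404992), which is specific to the PBAF form, showed the largest difference of the group. It had 203, 200 and 194 CPM in knockout, against 174, 161 and 179 CPM in wild type. Every knockout library was above every wild-type library, yet the change was small (0.22, SE 0.067, adjusted p = 0.0888). It passed only without wild-type library 3 (0.25, adjusted p = 0.0486; range over all alternatives 0.0486 to 0.591).

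Partner genes were also compared as ratios inside each library, which does not depend on library scaling. Pairs whose exons differ in length can still carry the length trend of wild-type library 2 described below. In neural development ACTL6A (BAF53A), the actin-like subunit of progenitor BAF, is replaced by ACTL6B (BAF53B) in neurons. The log2 ratio of Actl6b to Actl6a was 1.25 ± 0.040 in knockout and 1.78 ± 0.20 in wild type (SD, n = 3). All 3 knockout libraries were lower, by 0.53 on average. The exact two-sided permutation p was 0.10, the smallest that 3 libraries against 3 allow, and 0.30 after adjustment over the 6 ratios. Neither gene passed alone: Actl6b averaged 128 ± 5.44 CPM in knockout and 159 ± 17.2 in wild type (adjusted p = 0.0595), and Actl6a 48.9 ± 0.753 and 42.1 ± 2.63 CPM (adjusted p = 0.152). The log2 ratio of Crebbp to Ep300 also separated the groups, at 0.12 ± 0.046 in knockout and 0.046 ± 0.023 in wild type (exact p = 0.10, adjusted 0.30). That difference was only 0.079, and knockout library 3 (0.082) lay close to wild-type library 3 (0.071). The other 4 ratios overlapped between groups. Smarca2 to Smarca4 stood at -2.41 ± 0.010 in knockout and -2.32 ± 0.13 in wild type (exact p = 0.40). Their exons total 14269 and 6475 bases. The difference of -0.094 was -0.15 without wild-type library 2 and -0.026 without wild-type library 3. Smarcc2 to Smarcc1 stood at 1.65 ± 0.041 and 1.73 ± 0.079 (exact p = 0.20). Chd3 to Chd4 was 1.23 ± 0.021 in knockout and 1.43 ± 0.20 in wild type (exact p = 0.40). For Dnmt3a to Dnmt1 the values were -2.27 ± 0.045 and -2.27 ± 0.090 (exact p = 1).

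**Figure D2:**
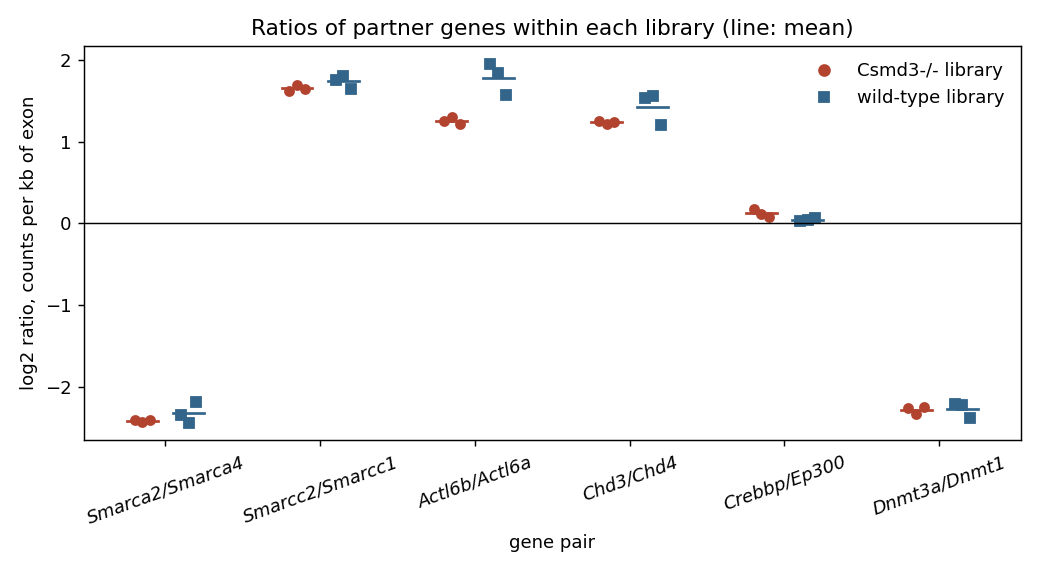
Log2 ratio of 6 pairs of partner genes, from counts per kb of exon, in each Csmd3-/- library (circles) and each wild-type library (squares), with the group mean as a line. Actl6b/Actl6a averaged 1.25 in knockout and 1.78 in wild type, without overlap.

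The 8 histone methyltransferase genes had 0 members past the threshold, with log2 fold changes from -0.13 to 0.30 and 6 of 8 above 0. Nsd1, whose loss causes Sotos syndrome (chromosome 13, 55209782 to 55318325), had 328, 312 and 304 CPM in knockout, against 279, 244 and 290 CPM in wild type. The groups did not overlap, but the difference was small (0.22, SE 0.078, adjusted p = 0.134). Kmt2a (chromosome 9, 44803355 to 44881296, minus strand) encodes a methyltransferase of active promoters and enhancers. It had 375, 353 and 368 CPM in knockout, against 348, 198 and 345 CPM in wild type. Wild-type library 2 stood far below the other 5. With that library the log2 difference was 0.30 (SE 0.22, adjusted p = 0.523) and without it 0.076 (adjusted p = 0.574; range over all alternatives 0.335 to 0.886). Kmt2c, Ash1l and Setd2, which encode methyltransferases of enhancers and of transcribed genes, had the same library lowest: 185, 134 and 134 CPM in it, against at least 223 CPM for Kmt2c, at least 170 CPM for Ash1l and at least 152 CPM for Setd2 in every other library. Setd5 was at 253 ± 5.27 CPM in knockout and 236 ± 27.1 in wild type (adjusted p = 0.568). Kmt5b (-0.13, SE 0.069, adjusted p = 0.329) and Ehmt1 (-0.062, SE 0.079, adjusted p = 0.719), which both write repressive marks, had slightly negative values. Kmt5b passed only when trends of GC and exon length were taken out (-0.19, adjusted p = 0.0423; range over all alternatives 0.0423 to 0.869).

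The histone demethylase genes Kdm5b and Kdm6b, and Phf21a, whose product recruits the demethylase LSD1 to chromatin, had log2 fold changes of 0.092 to 0.11, and 0 of 3 changed. Kdm6b, an eraser of Polycomb marks, was at 302 ± 8.51 CPM in knockout and 281 ± 15.5 in wild type. Phf21a had 119, 123 and 117 CPM in knockout and 112, 106 and 113 CPM in wild type, which did not overlap (0.11, SE 0.065, adjusted p = 0.357). Of the DNA methylation genes, Dnmt3a, the methyltransferase that lays down neuronal methylation after birth, had 125, 112 and 116 CPM in knockout and 126, 112 and 107 CPM in wild type. Its log2 fold change was 0.035 (95% interval -0.15 to 0.22). Mbd5 had 36.6, 39.9 and 43.6 CPM in knockout and 57.4, 36.4 and 38.9 CPM in wild type. Wild-type library 1 stood apart, and without it the log2 fold change was 0.077 in place of -0.14.

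Among genes of acetylation and corepressor complexes 0 of 5 changed. CREBBP and EP300 are the paired acetyltransferases of enhancers, and loss of either causes Rubinstein-Taybi syndrome. Crebbp (chromosome 16, 4081328 to 4213997) had 183, 177 and 178 CPM in knockout, against 166, 134 and 164 CPM in wild type. The groups were separate (0.21, SE 0.088, adjusted p = 0.19), and the value was 0.12 without wild-type library 2. Ep300 had 171, 172 and 177 CPM in knockout, against 172, 137 and 165 CPM in wild type, and the groups overlapped (0.14, adjusted p = 0.424). Hdac4 (chromosome 1, 91928779 to 92195699, minus strand), a class IIa deacetylase that shuttles between cytoplasm and nucleus in neurons, was the only one of the 34 whose groups were separate in the lower direction. It had 59.4, 59.1 and 65.0 CPM in knockout, against 73.2, 67.4 and 66.5 CPM in wild type (-0.17, SE 0.079, adjusted p = 0.231). Of its exon bases, 22.4% overlap Gm26720 on the opposite strand, and whether reads were counted by strand was not given in the sources used here. Tbl1xr1 (chromosome 3, 22076652 to 22216594), an exchange factor of the NCoR corepressor, had the largest fitted change of all 34. Its levels were 93.5, 60.9 and 107 CPM in knockout, against 56.4, 42.8 and 64.8 CPM in wild type. Knockout library 2 lay inside the wild-type range, and the difference did not pass (0.67, SE 0.25, adjusted p = 0.195). It passed with DESeq2 (adjusted p = 0.0112) and without knockout library 2 (0.88, adjusted p = 0.0331), and its adjusted p ran from 0.0109 to 0.397 over all alternatives. Ankrd11, a partner of histone deacetylases mutated in KBG syndrome, was at 305 ± 5.27 CPM in knockout and 285 ± 15.8 in wild type (adjusted p = 0.445).

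The remaining nuclear regulators had 0 of 6 changed. Adnp, a homeodomain protein that works with CHD4 and HP1, had 332, 332 and 317 CPM in knockout and 325, 328 and 313 CPM in wild type. Its log2 fold change was 0.022 (95% interval -0.11 to 0.16). Of the exon bases of Adnp, 82.1% are shared with Gm20716 on the same strand, which was listed at 0 counts in wild-type library 2 and at 3868 in wild-type library 3. The summed level of both was 352 ± 8.39 CPM in knockout and 350.0 ± 27.4 CPM in wild type. Pogz, another HP1 partner, was at 129 ± 1.04 CPM in knockout and 127 ± 5.65 in wild type. Med13l, a subunit of the kinase module of Mediator, was at 249 ± 16.4 and 232 ± 32.1 CPM in knockout and wild type. The ubiquitin ligase gene Trip12 (246 ± 3.79 CPM in knockout, 223 ± 23.7 in wild type) and Wac, which promotes histone H2B ubiquitination (133 ± 5.12 CPM in knockout, 121 ± 8.74 in wild type), did not pass (adjusted p = 0.367 and 0.337). Tcf4, a bHLH factor that pairs with proneural factors and causes Pitt-Hopkins syndrome when lost, had 724, 496 and 746 CPM in knockout, against 719, 648 and 791 CPM in wild type. Knockout library 2 was the lowest of the 6, and the log2 fold change of -0.13 became 0.038 without it.

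Across the 34 genes 8 (23.5%) had every knockout library above every wild-type library, against 15.6% of all tested genes, and 1 (2.94%) had every knockout library below, against 13.5%. Values of wild-type library 2 are given beside this lean, and its part in the lean was not tested. That library was the lowest of the 3 wild-type libraries for 29 of the 34 genes (85.3%), against 33.1% of all tested genes, 60.3% of genes with at least 8 kb of exon and a mean log2 CPM of 4 or more, and 71.6% of such genes over 12 kb. It was the lowest of all 6 libraries for 24 of the 34, against 21.5% of all tested genes. The genes share a property that the selection did not use: their annotated exons are long, with a median of 14.3 kb against 3.59 kb for all tested genes. GC content of their longest transcript was close to that of other genes (median 49.6% against 49.4%). In wild-type library 2 the level fell with exon length. Among genes whose mean log2 CPM was 4 or more, its median deviation from the mean of the 6 libraries was 0.19 on the log2 scale for 891 genes with under 2 kb of exon. For 725 genes with over 12 kb it was -0.15. In the other wild-type libraries these medians lay between -0.0012 and 0.032, and in knockout libraries they were -0.064 to -0.054 for the short and 0.026 to 0.044 for the long genes. The mean of the 6 libraries includes wild-type library 2, so its deviation pushes those of the other libraries the opposite way. Of the 34 genes, 22 fall in the class over 12 kb.

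Without wild-type library 2 the median log2 fold change of the 34 genes was 0.035 and 25 lay above 0. The value for Ash1l became 0.018 in place of 0.12, for Kmt2c 0.0067 in place of 0.13, for Setd5 0.019 in place of 0.099 and for Setd2 0.059 in place of 0.13. Among the other genes, Chd8 was at 0.051 in place of 0.12, Ep300 at 0.044 in place of 0.14 and Trip12 at 0.064 in place of 0.14. Med13l was at 0.032 in place of 0.10, Kdm5b at 0.034 in place of 0.092, Kdm6b at 0.064 in place of 0.10, Wac at 0.078 in place of 0.14 and Bcl11a at 0.015 in place of 0.076. Genes with larger values were lower as well: Tbl1xr1 at 0.52 in place of 0.67 and Chd2 at 0.38 in place of 0.44. Arid2 was at 0.17 and Nsd1 at 0.15, each in place of 0.22, and Crebbp at 0.12 in place of 0.21. The negative values of Mbd5 (-0.27 in place of -0.14) and Tcf4 (-0.20 in place of -0.13) lay further from 0 without that library. So did those of Kmt5b (-0.17 in place of -0.13), Smarca2 (-0.17 in place of -0.12), Ehmt1 (-0.10 in place of -0.062), Arid1b and Hdac4. Smarca4 (-0.018 in place of -0.024), Adnp (0.036 in place of 0.022) and Chd3 (0.041 in place of 0.030) lay higher. With trends of GC and exon length taken out of every library the median of the 34 was 0.047, and 24 lay above 0. The number of genes with all knockout libraries higher stayed at 8 without that library (23.5%, against 19.2% of all tested genes), and the number with all knockout libraries lower became 4 (11.8%, against 17.6%). With all libraries kept, 2157 genes of at least 8 kb of exon and that level had a median log2 fold change of 0.051. Of these, 61.6% lay above 0, 6.44% rose and 2.78% fell. Exons total at least 8 kb in 29 of the 34 genes. Chd7 kept its call without wild-type library 2 (0.41, adjusted p = 0.0364) and with the trends removed (0.42, adjusted p = 0.00982). The reason for the length trend in that library was not tested.

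**Figure D3:**
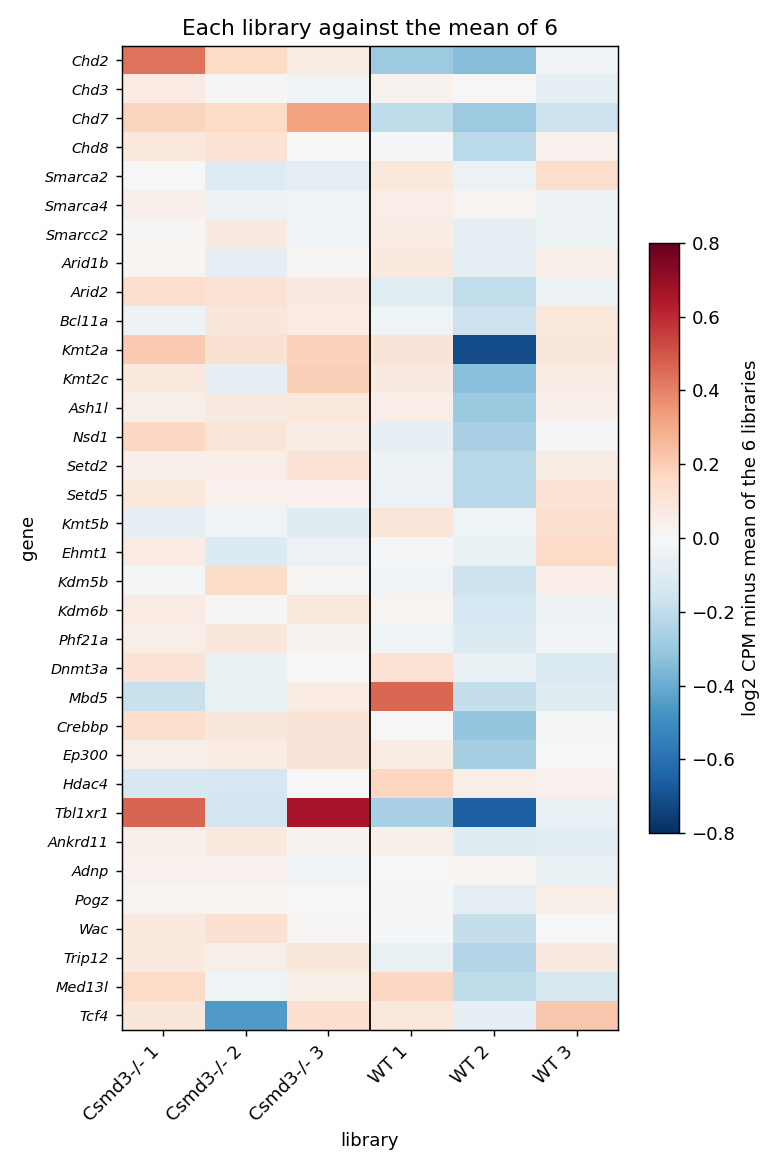
Log2 CPM of each gene (rows, grouped by role) in each library (columns, Csmd3-/- left of wild type), minus the mean of the 6 libraries, with red above and blue below that mean. The column of wild-type library 2 is blue for most genes and deepest for Kmt2a and Tbl1xr1, and Chd7 is red in all 3 knockout libraries and blue in all 3 wild-type libraries.

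**Figure D4:**
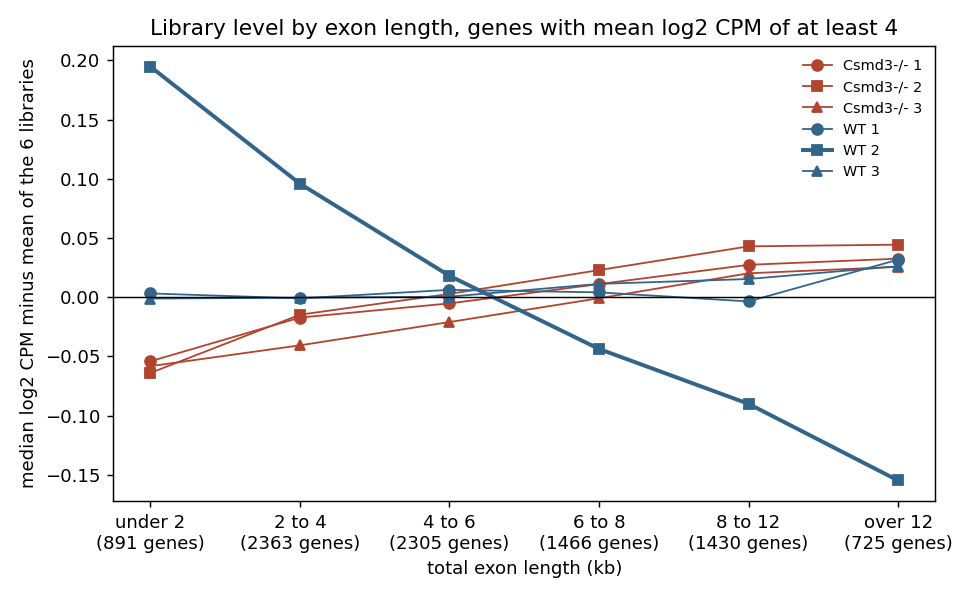
Median log2 CPM of each library minus the mean of the 6 libraries, in 6 classes of total exon length (kb), over genes whose mean log2 CPM was 4 or more. The thick line, wild-type library 2, runs from 0.19 in the shortest to -0.15 in the longest class, while each other library stays between -0.064 and 0.044.

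Windows at annotated start sites were rich in CpG in most, but not all, of the genes with a sequence. Sequences from RefSeq (GRCm38.p6), covering 250 bases before to 50 after a start site, matched 25 of the 34 genes with 30 windows. Such windows are given here for Crebbp and Hdac4, whose groups did not overlap in opposite directions, and for the pair of annotated starts of Phf21a, which differ in CpG. Capitals mark each CpG, the dinucleotide that DNA methyltransferases modify and that is dense in the islands at many promoters. All are written 5′ to 3′ on the strand of the gene.
Crebbp, chr16:4213355-4213654, minus strand: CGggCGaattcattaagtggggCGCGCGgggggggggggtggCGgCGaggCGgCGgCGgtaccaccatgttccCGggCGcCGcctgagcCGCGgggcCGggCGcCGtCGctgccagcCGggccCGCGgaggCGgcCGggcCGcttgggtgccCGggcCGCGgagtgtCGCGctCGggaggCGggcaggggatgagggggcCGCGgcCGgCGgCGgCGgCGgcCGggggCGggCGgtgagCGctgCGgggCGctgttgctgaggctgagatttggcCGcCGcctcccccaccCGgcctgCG
Hdac4, chr1:92180292-92180591, minus strand: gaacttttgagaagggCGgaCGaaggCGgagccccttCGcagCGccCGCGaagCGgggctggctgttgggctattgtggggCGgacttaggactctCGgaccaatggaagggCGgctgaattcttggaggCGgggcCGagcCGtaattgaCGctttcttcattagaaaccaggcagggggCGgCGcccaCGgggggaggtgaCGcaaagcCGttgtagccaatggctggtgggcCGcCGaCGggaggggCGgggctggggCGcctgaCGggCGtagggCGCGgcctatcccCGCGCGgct
Phf21a, chr2:92185233-92185532, plus strand: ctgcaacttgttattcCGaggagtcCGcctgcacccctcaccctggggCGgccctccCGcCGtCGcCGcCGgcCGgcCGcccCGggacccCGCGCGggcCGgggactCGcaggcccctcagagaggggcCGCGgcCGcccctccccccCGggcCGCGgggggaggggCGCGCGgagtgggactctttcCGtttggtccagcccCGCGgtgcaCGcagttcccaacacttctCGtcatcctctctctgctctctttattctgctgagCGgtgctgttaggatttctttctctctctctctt
Phf21a, chr2:92221222-92221521, plus strand: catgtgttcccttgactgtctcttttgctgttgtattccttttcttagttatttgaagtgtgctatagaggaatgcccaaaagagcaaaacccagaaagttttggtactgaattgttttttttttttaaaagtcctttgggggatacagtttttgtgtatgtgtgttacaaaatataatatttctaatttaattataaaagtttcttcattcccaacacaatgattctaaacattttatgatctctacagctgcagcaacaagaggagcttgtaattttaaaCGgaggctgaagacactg
The Crebbp window held 49 CpGs and the Hdac4 window 32. The upstream Phf21a window held 31 and the downstream one 1, where GC content was 33.3%. At least 20 CpGs stood in 21 of the 30 windows, against 26.5% of all 32851 windows. Those with fewer included the only matched window of Setd5 (1 CpG) and both of Mbd5 (19 and 4). The Setd5 window, at 113104685 on chromosome 6, lies inside the gene, which starts at 113077365, so its outermost start was not covered. The Hdac4 window likewise lies inside the gene, whose 5′ end is at 92195699, as do both Phf21a windows (gene start 92093117). The Crebbp window also lies inside its gene, whose 5′ end is at 4213997. The median number was 31.5 against 7. The letters GGGCGG, searched on both strands and overlapping CpG, were found in 26 of the 30 windows (86.7%, against 35.7% of all windows).

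Other genes of the same complexes were followed in 11 lists. Of 181 genes in these lists that are not among the 34, 10 rose (5.52%) and 2 fell (1.1%), against 5.21% and 2.53% of all tested genes. The KMT2 and SET1 complexes (16 genes), the histone demethylases (19), Mediator (32) and the list of ADNP, POGZ and heterochromatin partners (15) had 0 genes past the threshold in either direction, with medians of 0.049, 0.092, -0.019 and 0.097. Of 28 BAF and PBAF genes 1 rose and 1 fell (median 0.057). Ss18, a BAF subunit of progenitors, rose to 47.9 ± 10.3 CPM in knockout, against 29.8 ± 0.408 CPM in wild type (0.69, SE 0.14, adjusted p = 0.0174). The core subunit gene Smarcb1 fell to 143 ± 12.2 CPM in knockout, against 183 ± 13.2 CPM in wild type (-0.35, SE 0.085, adjusted p = 0.0364). Of 15 CHD and ISWI genes 3 rose and 1 fell (median 0.19). Besides Chd7 and Chd5, Baz1a, a subunit of ISWI remodellers, rose to 26.8 ± 1.84 CPM in knockout, against 14.5 ± 1.68 in wild type (0.88, SE 0.12, adjusted p = 0.0027). Chd9, a relative of Chd7, rose as well (0.30, SE 0.065, adjusted p = 0.0235).

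Of 22 Polycomb genes only Ezh2, the methyltransferase of PRC2 in progenitors, rose (134 ± 6.23 CPM in knockout, 107 ± 9.83 in wild type, 0.32, SE 0.082, adjusted p = 0.0454; list median 0.039). Of 15 genes of DNA methylation 2 rose (list median 0.14). Uhrf1, which guides maintenance methylation after replication, was at 70.4 ± 0.619 CPM in knockout and 46.0 ± 6.95 in wild type (0.61, SE 0.11, adjusted p = 0.00923). Tet2, an oxidase of methylcytosine, was at 76.3 ± 1.67 and 51.8 ± 4.50 CPM in knockout and wild type (0.56, SE 0.083, adjusted p = 0.00411). Of 17 other histone methyltransferases Nsd3, a relative of Nsd1, rose (0.34, SE 0.074, adjusted p = 0.0246; list median 0.099), and of 25 acetylation genes the deacetylase gene Hdac1 rose (0.37, SE 0.086, adjusted p = 0.031; list median 0.048). Of 13 bHLH factors and Id inhibitors, the proneural gene Neurog2 (0.52, SE 0.099, adjusted p = 0.0144) and Id4 (0.50, SE 0.098, adjusted p = 0.0158) rose (list median 0.17). The sums of dividing-cell markers given for Chd7 stand beside these genes too, and their part was not tested.

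With 1 library left out, Baz1a, Uhrf1 and Tet2 kept their calls in every case. Without knockout libraries 2 and 3, only Ss18 of the 12 kept its call (adjusted p = 0.0093). With trends of GC and exon length taken out, Chd9 (0.21, adjusted p = 0.147) and Ss18 (0.58, adjusted p = 0.058) did not pass, and with limma-voom Ezh2 did not (0.32, adjusted p = 0.0548). Ss18 lost its call without wild-type library 1 or 2 (highest adjusted p = 0.0735). Smarcb1 lost it without knockout library 1 or 3 or wild-type library 1 or 2 (0.158), and Neurog2 without knockout library 2 or 3 or wild-type library 1 or 2 (0.062). Chd9 passed only with wild-type library 2 or 3 left out (highest adjusted p otherwise 0.108). Nsd3 failed without knockout library 1 or 3 or wild-type library 2 (0.122), and Id4 without knockout library 1 or 3 or wild-type library 1 (0.0774). Ezh2 and Hdac1 failed without any library except wild-type library 3 (0.173 and 0.12).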

How the data were processed

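Whole-number gene counts, as deposited in 1 table per the file headers, were treated as estimated counts, because they piled up at multiples of 4: in wild-type library 1, 1298 genes had a count of 4, against 492 at 3 and 318 at 5. A fragment therefore appears to add about 4, and no rounding was needed. The submitters' processing notes list HISAT2 2.0.5, StringTie 1.3.4, Trim Galore 0.4.4, FastQC 0.11.9 and the build mm10, without roles. Counting program, annotation release and use of strand were not given in the sources used here. Rows were named with GENCODE M21 (55141 of 55401, 54349 with an identical identifier). The unnamed rows took up to 0.0238% of a library's counts.

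Groups came from the titles in the labels. After filterByExpr and TMM scaling, genes were compared in edgeR 4.0.16 (quasi-likelihood F-test, robust) in R 4.3.3, with Benjamini-Hochberg adjustment over all 19844 genes and a threshold of 0.05. Adjusted p-values of genes come from this test where no other is given. Log2 fold changes are knockout over wild type, the SE is the change divided by the square root of F, and intervals use the moderated degrees of freedom. Ratios of gene pairs used counts + 0.5 per kb of exon and exact permutation tests. The procedure was tested on simulated data. The 34 genes, the lists and the pairs were chosen with earlier results of these data known, and exon length classes, promoter features and the values by library of Kmt2a, Kmt2c, Ash1l, Setd2, Phf21a, Adnp, Tcf4, Csmd3 and Chd5 were chosen after they were seen. Of the 34 genes, values in every library are given for those past the threshold, the 6 next by p, those in the ratios, and the highest and lowest. From each list, up to 4 genes past the threshold are named.

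Tried as alternatives were DESeq2 1.42.0, voom of limma 3.58.1, RLE scaling, upper-quartile scaling, no filter, a filter at CPM 1 in 3 libraries, a block on replicate number, counts divided by 4, removal of trends of GC and exon length (lowess span 0.3), each library left out, and knockout libraries 2 and 3 left out. Depth was 54244288 to 68269607 deposited counts per library, and intervals cover the spread between these libraries only. No library pair of a group agreed within sampling noise (mean chi-square per gene 11.7 to 17.4 on fragments).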

Additional observations from a re-analysis of the deposited data

How the results depend on the processing

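Among the 34 genes, 517 combinations of a gene and an alternative kept direction and side of the threshold, 15 changed direction, 10 newly passed and 2 no longer passed, and Chd7 stayed between 0.40 and 0.48. The count of higher genes among the 34 was 1 and became 3 with DESeq2, and 2 without a filter, with a filter at CPM 1 in 3 libraries, with counts divided by 4 and with the replicate number as a block. It was 0 without knockout libraries 2 and 3, and 0 to 3 with 1 library left out. The count of lower genes was 0, and 1 with GC and length trends removed. Genes without overlap between groups numbered 8 to 15 higher (23.5% to 44.1%, against 19.2% to 23.4% of all tested genes) and 1 to 4 lower (2.94% to 11.8%, against 17.6% to 21.7%) with 1 library left out. Over all genes, 1033 higher and 503 lower became 472 to 1402 and 137 to 956 with 1 library left out, and 262 and 43 without knockout libraries 2 and 3. DESeq2 called 921 lower. The replicate block gave 686 higher and 255 lower. Over all tested genes, same-numbered libraries did not deviate together (correlations 0.0283, -0.00263 and 0.00163). Such correlations cannot show whether the numbers stand for a litter or a batch, which the sources used here do not give. Under the block Tbl1xr1 passed (adjusted p = 0.0109, SE 0.082 in place of 0.25). Chd9 (0.0698), Nsd3 (0.0507), Ezh2 (0.0955), Hdac1 (0.0631) and Csmd3 (0.0664) did not.

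Some fold changes, none past the threshold, changed sign, and the cause was not tested. With 1 library left out, log2 fold changes ran from -0.0012 to 0.056 for Chd3, -0.11 to 0.0031 for Ehmt1, -0.013 to 0.095 for Dnmt3a, -0.27 to 0.077 for Mbd5, -0.0057 to 0.059 for Pogz and -0.23 to 0.038 for Tcf4. With GC and length trends removed, Adnp was at -0.0090, Pogz at -0.015, Bcl11a at -0.018 and Smarca4 at 0.0066. Without knockout libraries 2 and 3, Arid1b was at 0.0042, Ehmt1 at 0.041, Smarca4 at 0.039 and Tcf4 at 0.019. The difference in the Dnmt3a to Dnmt1 ratio, -0.0056, was -0.058 to 0.023 with 1 library left out and 0.017 without knockout libraries 2 and 3. The fit without knockout libraries 2 and 3 assumes that the remaining knockout library varied like the wild-type libraries.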
